A study of Homo sapiens with 6 samples.

Results

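Nascent transcription was compared between cells given 2 different siRNAs against the same gene, SFPQ. The comparison sets the 2 PRO-seq libraries of siSFPQ-3 against the 2 of siSFPQ-2, which are 4 of the 6 libraries of the series, and it asks where the 2 reagents left different levels of engaged RNA polymerase. All libraries came from SBC-3, an established human small cell lung cancer line with the wild-type genotype. Cells of each group were transfected with 10 nM of siRNA using Lipofectamine RNAiMAX and taken after 72 h. The other 2 libraries, given a control siRNA (siCtrl), are shown beside each value as the level without an siRNA against SFPQ. The labels give neither the sequences of the siRNAs nor the extent of knockdown with each, and do not state whether replicates are separate cultures. The p-values therefore cover only the variation among these libraries, which may be technical.

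PRO-seq (precision run-on sequencing) extends RNA in permeabilized cells with labelled nucleotides, so its reads mark RNA polymerases that are transcribing at harvest rather than RNA that has accumulated. SFPQ is an RNA- and DNA-binding protein of the DBHS family, found with its partners NONO and PSPC1 in the paraspeckles that assemble on NEAT1 RNA, and known for roles in splicing, transcription and the handling of primary microRNA transcripts. An siRNA guides Argonaute proteins to mature transcripts that pair with it. Besides its intended target it can act on other transcripts that match its seed, which is why studies use more than 1 siRNA per gene.

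Values are the deposited normalized reads per annotated feature, and differences are siSFPQ-3 minus siSFPQ-2 on the log2(normalized reads + 1) scale, which understates the change of features with few reads. The 4 siSFPQ libraries held between 12990457 and 15425585 reads. A total of 21773 features passed the filter, and their median log2 difference was 0.00. The siSFPQ-3 replicates differed more from each other (chi-square divided by its degrees of freedom, 24.3) than those of siSFPQ-2 (11.7) or siCtrl (11.1). These values sum over features, include those with the most reads and can be dominated by them. They do not give the spread of a typical gene. The top 2 features held 7.79 and 13.9% of reads in the siSFPQ-3 libraries and 7.36 and 10.3% in the siSFPQ-2 libraries. A feature is called below where its Benjamini-Hochberg adjusted p over all tested features was under 0.05 in limma. Such a p was fitted over all 6 libraries, so the siCtrl libraries enter the estimate of the spread. A feature is said to lie above or below where both siSFPQ-3 libraries were above or below both siSFPQ-2 libraries. Of all 21773 tested features, 22% lay above and 19.3% below, and the count of each list is to be read beside these shares. They differed with gene span, as given below. At an unadjusted p under 0.05, limma had 1649 of the 21773 features higher and 1070 lower. The count of a list at that p is to be read beside these. An exact permutation test of 2 libraries against 2 cannot go below p = 0.333, so separation alone is no test.

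The cell line was checked against marker genes. Among neuroendocrine markers, the synaptic vesicle gene SYP lay between 187 and 412 normalized reads, NEUROD1 between 11.1 and 31.0, and the granule protein gene CHGA between 0 and 5.54. The non-neuroendocrine markers YAP1 (2856 to 5431) and REST (1042 to 1206) and the tuft-type marker POU2F3 (73.9 to 129) had reads in every library. NEUROD1 and CHGA were thus low, and the line is named here by its label alone.

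A called difference with a bearing on microRNAs was that of MIR181A2HG, the long non-coding host transcript of MIR181A2 and MIR181B2 on chromosome 9 (124658436 to 124698628, GRCh38). The mature microRNAs that RefSeq (GRCh38.p14) places inside this host are shown first to identify what the host carries. The reads were counted over the host, and the mature microRNAs were not measured. Capitals mark the seed, bases 2 to 8 from the 5′ end, with which a microRNA chooses its targets.
hsa-miR-181a-5p: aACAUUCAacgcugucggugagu
hsa-miR-181b-5p: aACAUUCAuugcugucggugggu
hsa-miR-181a-2-3p: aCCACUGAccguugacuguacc
hsa-miR-181b-2-3p: cUCACUGAucaaugaaugca
The first pair, the 5p arms, share the seed ACAUUCA and so form a single seed family. The 3p arms have the seeds CCACUGA and UCACUGA. The same 5p arms also come from MIR181A1 and MIR181B1, which lie in the host MIR181A1HG on chromosome 1 (198808003 to 198937429).

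MIR181A2HG had 422 and 482 normalized reads with siSFPQ-2 against 802 and 852 with siSFPQ-3. Both siSFPQ-3 libraries were clearly the higher pair, a rise of 0.87 (SE 0.12, limma, adjusted p = 0.0477), which is 1.83-fold. In the siCtrl libraries the host had 387 and 426 reads, close to the siSFPQ-2 pair. The other miR-181 host, MIR181A1HG, had 236 and 290 reads with siSFPQ-2 against 442 and 486 with siSFPQ-3, without overlap. Its difference of 0.82 did not pass (limma, adjusted p = 0.104). In siCtrl it had 28.7 and 33.2 reads, far below all 4 siSFPQ libraries.

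Among the 33 tested long non-coding hosts of microRNAs, MIR181A2HG was the only one called, and the median difference was 0.00. Of these hosts 10 lay above and 5 below (30.3 and 15.2%), beside 22 and 19.3% of all tested features. MIR22HG, host of miR-22, was lower with siSFPQ-3, with 573 and 731 reads against 1031 and 1273 with siSFPQ-2. This difference of -0.82 did not pass either (limma, adjusted p = 0.088), and the siSFPQ-3 pair lay near the siCtrl pair of 713 and 873. H19, the imprinted host of miR-675, had 51.6 and 36.5 reads against 88.2 and 68.7 (adjusted p = 0.212). MIR17HG, which carries the miR-17-92 cluster, had 900 and 717 reads with siSFPQ-3 and 898 and 900 with siSFPQ-2, a difference of -0.16 (adjusted p = 0.671).

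Protein-coding hosts of microRNAs had 0 calls among 48, with 7 higher and 6 lower at an unadjusted p under 0.05 in limma and a median of 0.03. The member with the smallest p was ARRB1, which encodes beta-arrestin 1 and hosts miR-326, at 2230 and 2262 reads with siSFPQ-3 against 1716 and 1262 (adjusted p = 0.116). SREBF1, a regulator of lipid synthesis and host of miR-33b, was the next, at 1155 and 1284 against 1611 and 1715 (adjusted p = 0.124). Genes that process microRNAs or act with them moved little. Of 35, 9 lay above and 1 below (25.7 and 2.86%), the median was 0.04, and 0 were called (2 higher and 0 lower at an unadjusted p under 0.05 in limma). The deadenylase scaffold CNOT1 had the smallest p, with 3266 and 3388 reads against 2537 and 2741, and the microprocessor nuclease DROSHA had a difference of -0.01.

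In all, 22 of 21773 features were called (0.101%), 17 higher (0.0781%) and 5 lower (0.023%) with siSFPQ-3. Of these, 8 rose and 4 fell at least 2-fold, and 13 reached the median level of tested features, 287 normalized reads. At an unadjusted p under 0.05, limma had 1649 features higher and 1070 lower. The adjusted p of the 22 ran from 0.0263 to 0.0492. In 12 of the 17 that rose, the mean with siSFPQ-2 lay between those of siCtrl and siSFPQ-3. In 2 the siSFPQ-3 mean lay between siSFPQ-2 and siCtrl, and in 3 siCtrl lay in the middle.

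The calls rest on few libraries. None of the 22 was called without the first or the second siCtrl library, without the second siSFPQ-2 library or with the 4 siSFPQ libraries alone, and with all libraries scaled to the same total 1 feature was called higher (ALPK2) and 0 lower. All 22 kept their sign in each of these settings, and edgeR's quasi-likelihood test on the recovered reads called all 22 (highest adjusted p = 0.0412). Calls in the text come from the fit without a replicate term. With the replicate number as a block, limma called 572 features higher and 188 lower, among them 23 of the 40 named genes not called here. The labels do not say that these numbers pair the libraries.

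**Figure D1:**
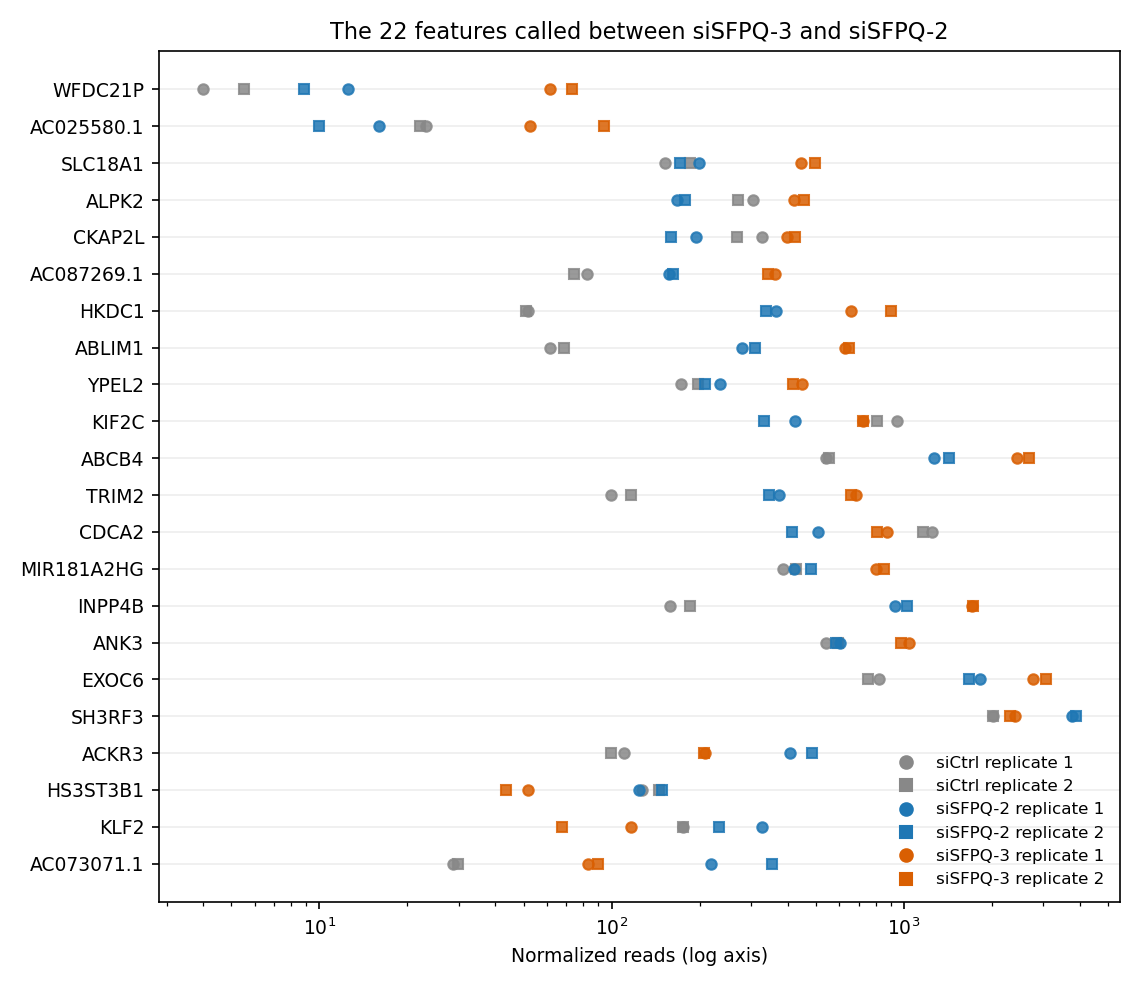
Normalized reads (log axis) of the 22 called features in each of the 6 libraries, ordered by the difference between siSFPQ-3 and siSFPQ-2. Circles are replicate 1 and squares replicate 2. Both orange points (siSFPQ-3) lie to the right of both blue points (siSFPQ-2) for 17 features and to the left for 5, and for 12 of the 17 that rose the siCtrl mean lies below both siSFPQ means.

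Genes of transport and metabolism were among the rises. ABCB4, the canalicular phospholipid flippase, had 1266 and 1423 reads with siSFPQ-2 against 2444 and 2686 with siSFPQ-3, after 540 and 553 in siCtrl. The 3 groups formed separate steps, and the difference was 0.93 (SE 0.11, limma, adjusted p = 0.0349). HKDC1, a hexokinase family member that phosphorylates glucose, stepped in the same order, from 51.8 and 51 in siCtrl to 365 and 338 with siSFPQ-2 and then 659 and 906 with siSFPQ-3 (difference 1.14, SE 0.17). SLC18A1, a vesicular monoamine transporter, had 200 and 172 reads with siSFPQ-2 against 443 and 496 with siSFPQ-3. Its siCtrl values of 152 and 185 sat with the siSFPQ-2 pair, and its difference was 1.34 (SE 0.16, adjusted p = 0.0349).

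Genes of the cytoskeleton, membranes and trafficking followed. ABLIM1, an actin-binding LIM protein, had 280 and 309 reads with siSFPQ-2, 630 and 650 with siSFPQ-3, and 61.4 and 68.7 in siCtrl, a rise of 1.12 (SE 0.14, limma, adjusted p = 0.0458). ANK3, the ankyrin that anchors membrane proteins to the spectrin skeleton, had 604 and 588 reads with siSFPQ-2 against 1037 and 978 with siSFPQ-3. Here too siCtrl (541 and 595) overlapped the siSFPQ-2 libraries and not the siSFPQ-3 ones. EXOC6, a subunit of the exocyst, which tethers secretory vesicles, rose by 0.74, from 1820 and 1668 to 2755 and 3070.

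Signalling and protein turnover genes gave further rises. INPP4B, a phosphatase of inositol lipids, had 930 and 1028 reads with siSFPQ-2 against 1710 and 1728 with siSFPQ-3, with 159 and 185 in siCtrl. This was a difference of 0.81 (SE 0.12, limma, adjusted p = 0.0477) on top of a higher level in all 4 siSFPQ libraries. TRIM2, a ubiquitin ligase, had 374 and 347 against 684 and 659, and 99.6 and 116 in siCtrl. ALPK2, an alpha-kinase, had the smallest p of all features (adjusted p = 0.0263): 168 and 178 reads with siSFPQ-2, 422 and 454 with siSFPQ-3, and 305 and 271 in siCtrl. For ALPK2 the control lay between the siRNAs, with no overlap among the 3 pairs, and the difference was 1.33 (SE 0.14), which is 2.53-fold.

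Among the features that fell, the largest by reads was SH3RF3, a ubiquitin ligase with SH3 domains that acts as a scaffold of JNK signalling. It had 3749 and 3883 reads with siSFPQ-2, 2401 and 2299 with siSFPQ-3, and 2013 and 2015 in siCtrl, so the siSFPQ-3 pair lay nearer to the control (difference -0.70, SE 0.10, limma, adjusted p = 0.0477). KLF2, a Krüppel-like transcription factor that responds quickly to stimuli, had 326 and 234 against 116 and 67.9, and 175 and 176 in siCtrl. The control lay between the siRNAs, and the fall was 1.62 on the log2 scale (SE 0.25, adjusted p = 0.0492), or 3.04-fold. KLF2 was the only called member of 37 tested immediate early and AP-1 genes, of which 7 lay above and 9 below (18.9 and 24.3%), with a median of -0.06.

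SLC18A1 and 7 more called features were below the read level of the rule for named genes or carry clone names, and are given after their values were seen. ACKR3, an atypical chemokine receptor, had 409 and 485 reads with siSFPQ-2 against 209 and 207 with siSFPQ-3, above 110 and 99.7 in siCtrl. HS3ST3B1, a heparan sulfate sulfotransferase, had 124 and 148 against 51.6 and 43.5, and its siCtrl values of 127 and 145 matched siSFPQ-2. YPEL2, of the yippee-like family, had 234 and 209 against 447 and 417, and WFDC21P, a transcribed pseudogene, 12.5 and 8.86 against 61.3 and 72.9. The latter was the largest called rise, 6.29-fold, from few reads. The 3 clone-named long non-coding features were AC087269.1 (difference 1.14), AC025580.1 (2.39) and AC073071.1 (-1.67).

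The other 3 called features, CKAP2L, CDCA2 and KIF2C, were mitotic genes, and the genes of mitosis as a group showed the widest shift of the lists examined. Of 85 tested genes for mitotic kinases, cyclins, spindle and kinetochore proteins, 66 lay above and 2 below (77.6 and 2.35%, beside 22 and 19.3% of all features). The median difference was 0.62, against 0.00 for all tested features, 83 of the 85 differences were positive, and 65 had an unadjusted p under 0.05 in limma. These lists were drawn up with earlier results of these data known, so the counts describe the list and are not tested. In bulk libraries, fewer cells that transcribe these genes and less transcription per cell cannot be told apart.

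CKAP2L, a microtubule-associated protein of the spindle poles, had 194 and 159 reads with siSFPQ-2, 399 and 423 with siSFPQ-3, and 328 and 269 in siCtrl. The rise was 1.22 (SE 0.16, limma, adjusted p = 0.0458), and the siSFPQ-3 pair lay above the control. KIF2C, the kinesin MCAK that depolymerizes microtubules at centromeres, had 425 and 331 reads with siSFPQ-2 against 727 and 726 with siSFPQ-3, a rise of 0.95 (SE 0.14, adjusted p = 0.0477). Here the siSFPQ-3 pair stayed below the control values of 949 and 810. CDCA2, which targets a phosphatase to mitotic chromatin, had 509 and 414 against 874 and 811, and 1246 and 1159 in siCtrl. It rose by 0.87 (SE 0.13, adjusted p = 0.0477) and likewise stayed below the control.

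Many mitotic genes that did not pass showed the same order of libraries. The checkpoint kinase BUB1 had 206 and 151 reads with siSFPQ-2, 397 and 345 with siSFPQ-3 and 600 and 508 in siCtrl (difference 1.07, limma, adjusted p = 0.0583). NEK2, a kinase of centrosome separation, had 122 and 95.2 against 217 and 218 (1.01, adjusted p = 0.0637). MYBL2, a transcription factor that drives mitotic genes, had 380 and 262 against 568 and 617 (0.90, adjusted p = 0.0757). The best known regulators, chosen after their values were seen, gave smaller differences. CDK1, the kinase that starts mitosis, had 343 and 238 reads against 486 and 417 (0.65, adjusted p = 0.144). Its partner cyclin B1, CCNB1, had 312 and 229 against 437 and 379 (0.60, adjusted p = 0.159), and the kinase PLK1 407 and 328 against 515 and 460 (0.41, adjusted p = 0.235). PSRC1 and BUB3 were the 2 members that lay below, with differences of -0.27 and -0.09.

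The replicates of siSFPQ-2 were not alike in this list. Summed over the 85 genes, normalized reads were 28640 and 20170 with siSFPQ-2, 38780 and 33580 with siSFPQ-3, and 54700 and 49700 in siCtrl. The second siSFPQ-2 library was the lowest of the 6 and the siSFPQ-3 pair lay between the other groups. Without the second siSFPQ-2 library the median difference of the list was 0.33, and without the first it was 0.94. The mean of siSFPQ-3 lay between those of siSFPQ-2 and siCtrl for 79 of the 85 genes.

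Mitotic genes are known to share 2 promoter elements, the cell cycle genes homology region (CHR, TTTGAA) and the CCAAT box. The proximal promoters of CKAP2L, KIF2C, BUB1 and NEK2, mitotic genes with a small p, are shown for this reason. They are not strictly the members of smallest p. The called gene CDCA2 was left out, although its unadjusted p in limma (2.77e-05) was below that of KIF2C (3.56e-05). Each line gives the 250 bases before the first start that RefSeq (GRCh38.p14) lists, on the strand of the gene. Capitals mark TTTGAA or CCAAT, or their reverse complements TTCAAA or ATTGG. The windows are chr2:112764610-112764859, minus strand; chr1:44739587-44739836, plus strand; chr2:110678064-110678313, minus strand; and chr1:211675622-211675871, minus strand.
CKAP2L: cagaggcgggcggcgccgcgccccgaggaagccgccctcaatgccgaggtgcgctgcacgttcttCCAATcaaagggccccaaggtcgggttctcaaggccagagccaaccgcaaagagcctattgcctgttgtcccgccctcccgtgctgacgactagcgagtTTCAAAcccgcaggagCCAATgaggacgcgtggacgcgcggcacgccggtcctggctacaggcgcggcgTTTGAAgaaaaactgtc
KIF2C: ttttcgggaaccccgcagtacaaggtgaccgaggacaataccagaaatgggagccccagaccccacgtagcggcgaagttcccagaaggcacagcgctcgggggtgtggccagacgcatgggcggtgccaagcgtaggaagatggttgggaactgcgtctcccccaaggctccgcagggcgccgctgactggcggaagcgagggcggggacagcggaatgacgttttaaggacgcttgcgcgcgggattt
BUB1: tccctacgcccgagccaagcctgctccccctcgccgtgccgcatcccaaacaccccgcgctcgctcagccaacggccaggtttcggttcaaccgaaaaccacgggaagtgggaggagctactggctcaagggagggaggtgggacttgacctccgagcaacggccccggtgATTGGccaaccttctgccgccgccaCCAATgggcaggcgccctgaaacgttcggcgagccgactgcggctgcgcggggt
NEK2: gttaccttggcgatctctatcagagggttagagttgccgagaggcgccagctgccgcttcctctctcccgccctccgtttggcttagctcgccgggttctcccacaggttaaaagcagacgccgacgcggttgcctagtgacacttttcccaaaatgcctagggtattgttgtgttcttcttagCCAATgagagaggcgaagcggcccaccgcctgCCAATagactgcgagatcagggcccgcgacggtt
CKAP2L held TTTGAA on the minus strand 86 to 81 bases before the start and on the plus strand 17 to 12 bases before it, and CCAAT at 185 to 181 and 70 to 66 bases. BUB1 and NEK2 each held 2 CCAAT matches, the nearest ending 50 and 30 bases before the start, and no TTTGAA. KIF2C held neither in this window.

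Of the 85 mitotic members, 70 had a promoter in the RefSeq table, and 31 of these (44.3%) held TTTGAA on either strand, against 13.6% of all 27305 promoters of the same length. CCAAT was held by 47 (67.1%), against 33.0% of all promoters, and both motifs by 26 (37.1%), against 4.85%. Among the 11931 promoters of tested features the shares were 8.61% for TTTGAA, 34.8% for CCAAT and 3.49% for both. The median difference was 0.66 for the 31 mitotic genes with TTTGAA and 0.60 for the 39 without it, and 25 and 30 of them lay above. A match is a run of letters in the window and says nothing of binding.

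Genes of S phase shifted in the same direction with a smaller median. Of 69 tested E2F and S phase genes, 49 lay above and 1 below (71 and 1.45%), 43 were higher and 0 lower at an unadjusted p under 0.05 in limma, and 0 were called by limma, with a median of 0.39. The exonuclease gene EXO1, which acts in mismatch repair and replication, had the smallest p, with 188 and 96.3 reads with siSFPQ-2, 302 and 363 with siSFPQ-3 and 481 in each siCtrl library (difference 1.29, limma, adjusted p = 0.0911). The replicative helicase subunit MCM3 had 288 and 213 with siSFPQ-2 against 423 and 393, and ORC1, of the origin recognition complex, 387 and 299 against 540 and 523. Thymidine kinase 1, TK1, had 291 and 151 against 406 and 402. In each of these genes the second siSFPQ-2 library was the lowest. The list's median was 0.22 without that library and 0.62 without the first siSFPQ-2 library. The E2F motif TTTCCCGC was found in 17.9% of 56 E2F and S phase promoters and in 1.42% of all promoters, and TTTGAA in 3.57% of these 56. Among promoters of tested features the shares were 2.17% for the E2F motif and 8.61% for TTTGAA.

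**Figure D2:**
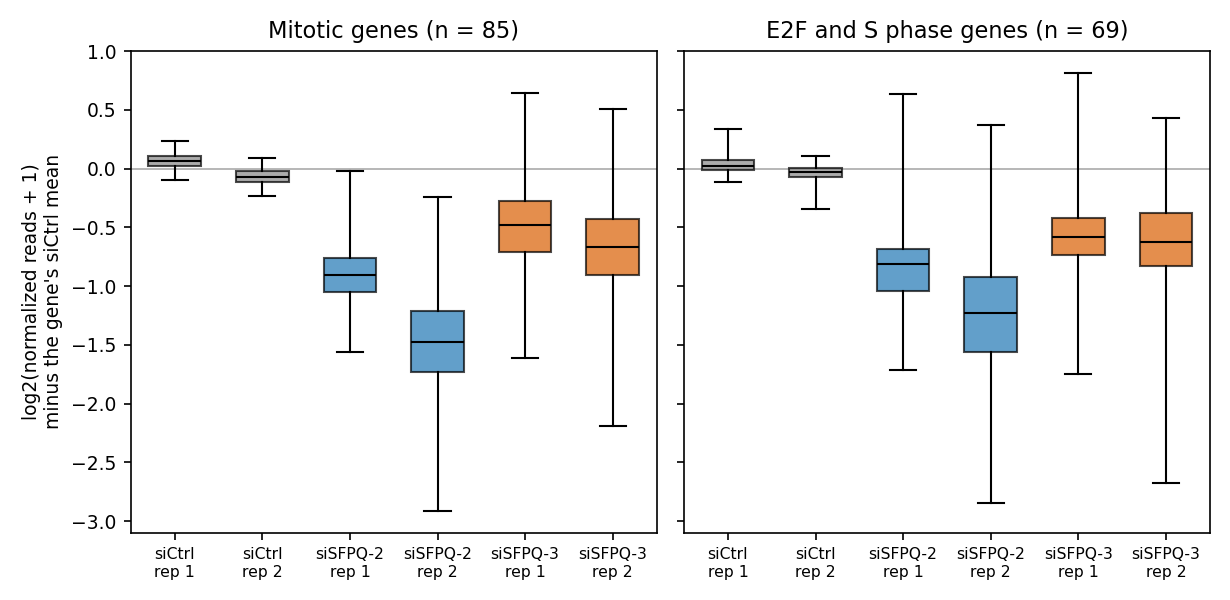
Level of each mitotic gene (left, 85 genes) and each E2F and S phase gene (right, 69 genes) in each library, as log2(normalized reads + 1) minus the gene's siCtrl mean. Boxes show the median and quartiles and whiskers the lowest and highest gene. The medians of the mitotic genes are -0.91 and -1.48 in the siSFPQ-2 libraries and -0.48 and -0.66 in the siSFPQ-3 libraries, and those of the S phase genes -0.81 and -1.23 against -0.58 and -0.63.

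Replication-dependent histone genes, which are transcribed in S phase to package new DNA, had a median near 0. Of 55 tested, 7 lay above and 3 below (12.7 and 5.45%), and the median was 0.07. H3C8 had the smallest p, at 266 and 189 reads with siSFPQ-2 against 503 and 343 with siSFPQ-3, in a family of near-identical copies whose single members are uncertain. Of 44 genes of double-strand break repair, 23 lay above and 5 below (52.3 and 11.4%), beside 22 and 19.3% of all features. Their median was 0.17. The end-joining gene XRCC4 was highest with siSFPQ-3, with 2565 and 3088 reads against 1700 and 1895, and 627 and 530 in siCtrl (difference 0.65, limma, adjusted p = 0.095). The homologous recombination genes BARD1 (727 and 576 against 441 and 337) and RAD54L (478 and 436 against 305 and 177) had the order of the cell cycle genes, with siCtrl highest.

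Lists of signalling genes had smaller medians. YAP and TEAD target genes lay above in 18 of 33 and below in 3 (54.5 and 9.09%), with a median of 0.15. The shares of all tested features were 22 and 19.3%. ANKRD1, a muscle ankyrin repeat protein and common readout of YAP, had 24.1 and 16.6 reads with siSFPQ-2 against 53.8 and 70.9 with siSFPQ-3, and 1.59 and 3.32 in siCtrl (difference 1.58, limma, adjusted p = 0.155). Among TGF-beta and BMP response genes, 18 of 36 lay above and 6 below (50 and 16.7%), with a median of 0.10. Their differences ran from -0.82 to 1.02, and 15 were higher and 2 lower at an unadjusted p under 0.05 in limma. Neither list held a called member. Protein-coding genes of 100 to 300 kb, a span class that holds NEDD9, had shares of 39.1 and 7.76%. NEDD9, a docking protein of focal adhesions, had 676 and 648 with siSFPQ-2 against 986 and 1106 (0.66, adjusted p = 0.0637), and the neural cadherin gene CDH2 3906 and 4560 against 6454 and 6927 (0.66, adjusted p = 0.0858). The transcription factor ZEB2 had 2222 and 2300 against 3317 and 3344. All 3 were lowest in siCtrl and highest with siSFPQ-3.

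The lists of receptor tyrosine kinases, TNF superfamily genes, collagens with laminins and integrins, and very long neuronal genes held no called member in limma. At an unadjusted p under 0.05, in that order, 5 of 32, 2 of 24, 10 of 37 and 1 of 22 members were higher and 0, 1, 0 and 2 lower. Of all 21773 tested features, 1649 were higher and 1070 lower at that p. MET, the receptor of hepatocyte growth factor, had 1479 and 1620 reads with siSFPQ-2 against 2403 and 2612 with siSFPQ-3, and 301 and 327 in siCtrl (difference 0.69, limma, adjusted p = 0.0583). It belongs to 32 tested receptor tyrosine kinase genes, of which 13 lay above and 4 below (40.6 and 12.5%). All tested features had shares of 22 and 19.3%, and protein-coding genes of 100 to 300 kb shares of 39.1 and 7.76%. EDAR, a receptor of the TNF superfamily that acts in skin appendages, was lower with siSFPQ-3, at 108 and 89.1 against 204 and 222 (-1.11, adjusted p = 0.0583). Of 24 TNF superfamily genes 6 lay above and 3 below (25 and 12.5%). COL8A1, a short-chain collagen, had 131 and 151 with siSFPQ-3 against 64.2 and 52, in a list of 37 collagens, laminins and integrins with 14 above and 1 below (37.8 and 2.70%) and a median of 0.19. The kainate receptor gene GRIK2 had 1102 and 930 with siSFPQ-3 against 1588 and 2041 (-0.83, adjusted p = 0.0637), in a list of 22 very long neuronal genes with a median of 0.05.

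Among the lists in which more members lay below than above were those of oxidative phosphorylation, the ATF4 response and the unfolded protein response. Others included polymerase pausing and elongation genes (10 of 39 below and 5 above) and circadian genes (6 of 18 below and 4 above). Of all tested features, 19.3% lay below and 22% above. Of 67 genes of oxidative phosphorylation subunits, 21 lay below and 3 above (31.3 and 4.48%), with a median of -0.07, beside 30.6 and 11.7% of all protein-coding genes under 10 kb. The list's library medians overlapped, at -0.05 and 0.05 with siSFPQ-2 against -0.14 and -0.02 with siSFPQ-3, each relative to the gene's mean over the 6 libraries. The ATP synthase subunit gene ATP5F1E had 1466 reads in each siSFPQ-2 library and 1173 and 1038 with siSFPQ-3 (difference -0.41, limma, adjusted p = 0.162). Of 42 ATF4 and amino acid response genes, 15 lay below and 4 above (35.7 and 9.52%), with a median of -0.11. DDIT4, an inhibitor of mTOR signalling, had 894 and 829 with siSFPQ-3 against 1165 and 1098, both below the siCtrl level of 1979 and 1980. Of 23 unfolded protein response genes, 9 lay below and 1 above (39.1 and 4.35%), with a median of -0.14. The ubiquitin ligase gene SYVN1 had 280 and 314 reads with siSFPQ-3 against 394 and 427, and the chaperone gene HSPA5 783 and 735 against 930 and 1015. ATF6, a sensor of the endoplasmic reticulum, was the 1 that lay above, at 967 and 1009 against 726 and 808.

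Cytosolic ribosomal protein genes showed neither direction, with 3 of 77 above and 7 below (3.9 and 9.09%) and a median of -0.02. Lists of NF-kB targets (35 features), p53 targets (33), interferon-stimulated genes (35), ERK feedback genes (24), Notch genes (26), cholesterol genes (28), glycolysis and hypoxia genes (37), heat shock genes (19), circadian genes (18), HOX genes (36), guidance genes (45), polymerase pausing and elongation genes (39) and snoRNA host genes (29) had medians between -0.09 and 0.09. The cytokine gene IL1A had the smallest p of the NF-kB list. It had 125 and 176 reads with siSFPQ-2, 303 and 614 with siSFPQ-3, and 6.38 and 6.65 in siCtrl (difference 1.53, limma, adjusted p = 0.0989). IFI44L, an interferon-stimulated gene, had 517 and 463 with siSFPQ-3 against 330 and 238 (adjusted p = 0.0989). The circadian output factor gene DBP had 168 and 156 against 213 and 231, the RNA capping factor gene MEPCE 914 and 1085 against 1286 and 1307, and the Notch effector gene RBPJ 1861 and 1742 against 1383 and 1396.

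**Figure D3:**
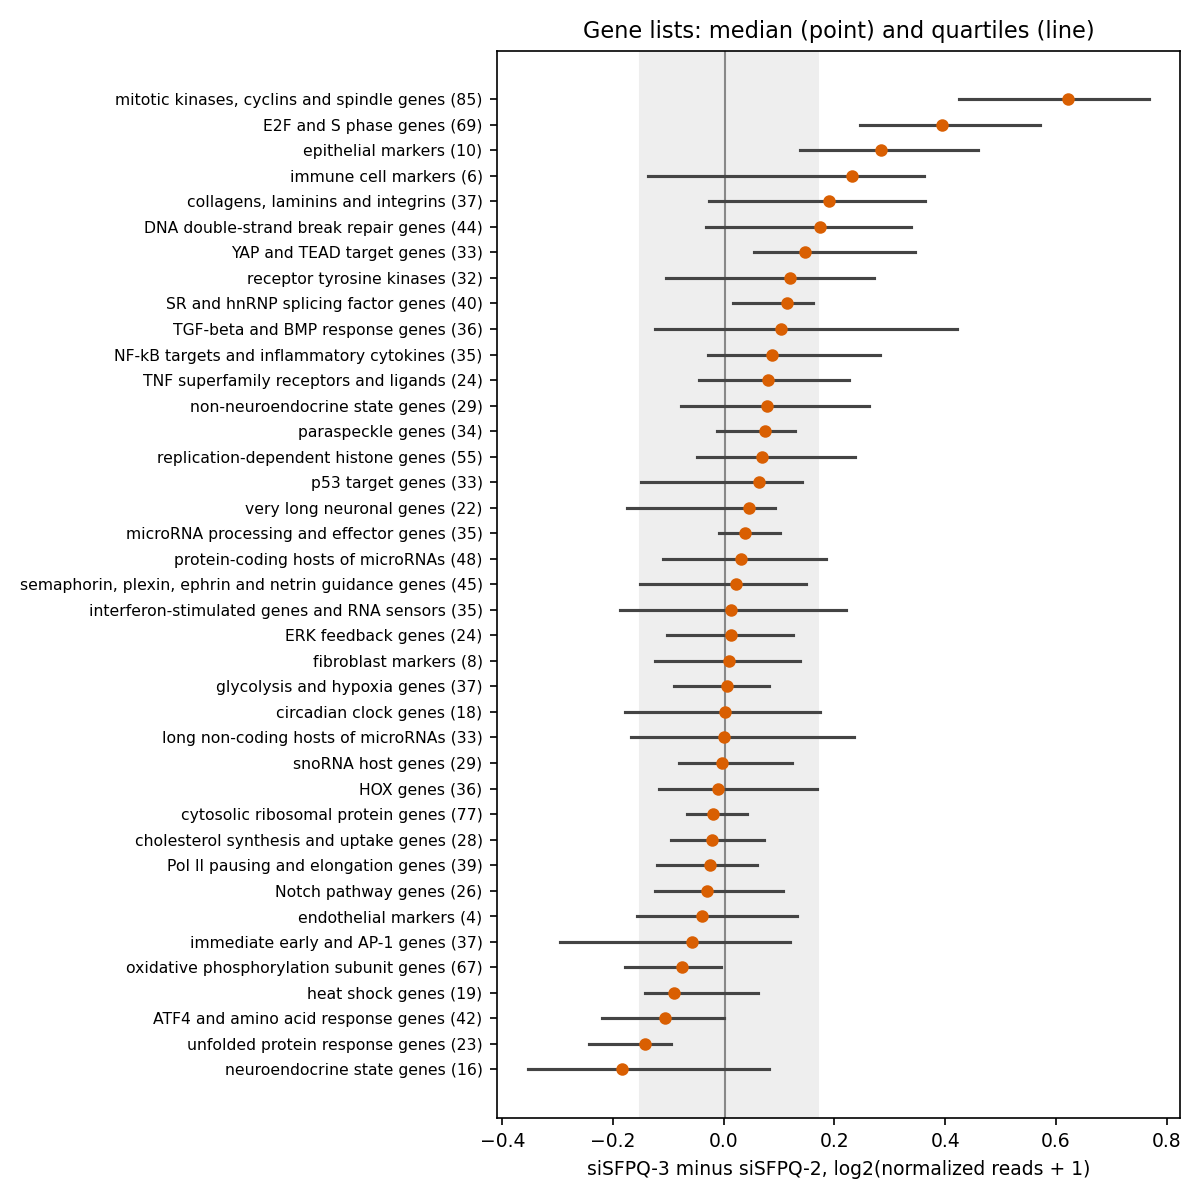
Median (point) and quartiles (line) of the log2 difference, siSFPQ-3 minus siSFPQ-2, for 39 gene lists, with the number of tested features of each in parentheses. The grey band spans the quartiles of all 21773 tested features and the grey line their median. The mitotic list (median 0.62) and the E2F and S phase list (0.39) have quartile ranges wholly to the right of the band, and the list with the lowest median is that of neuroendocrine state genes (-0.18).

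Markers of cell state and of other cell types had 0 calls in limma. At an unadjusted p under 0.05, 3 neuroendocrine, 7 non-neuroendocrine, 2 epithelial and 1 immune gene were higher, and 4 neuroendocrine and 1 non-neuroendocrine gene were lower. Of 29 tested non-neuroendocrine state genes 10 lay above and 4 below (34.5 and 13.8%), with a median of 0.08. EMP1, an epithelial membrane protein, had 166 and 220 reads with siSFPQ-3 against 80.2 and 104, and 24.7 and 32.1 in siCtrl (difference 1.05, limma, adjusted p = 0.119). Of 35 neuroendocrine state genes 16 were tested, with 4 above and 6 below (25 and 37.5%). SYP had 187 and 232 reads with siSFPQ-3 and 338 and 412 with siSFPQ-2, a difference of -0.84 (limma, adjusted p = 0.0989), and 283 and 226 in siCtrl. Of 20 epithelial markers 10 were tested, with 7 above and 0 below (70.0 and 0%) and a median of 0.28. The shares of all tested features were 22 and 19.3%. The epithelial transcription factor gene ELF3 had 997 and 1395 with siSFPQ-3 against 769 and 718 (adjusted p = 0.119), with 123 and 127 in siCtrl. The summed epithelial reads were 1670 and 1777 in siCtrl, with 4406 and 4829 for siSFPQ-2 against 4745 and 5771 with siSFPQ-3. Of 16 fibroblast markers 8 were tested (2 above, 0 below), of 19 immune markers 6 (3 above, 1 below) and of 13 endothelial markers 4 (1 above, 1 below). Summed fibroblast reads were 5259 and 5801 with siSFPQ-2 against 5293 and 6083 with siSFPQ-3, summed immune reads 786 and 751 against 822 and 1098, and summed endothelial reads 1687 and 1929 against 1653 and 1601. The part of these markers in the differences above was not tested.

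The target of both siRNAs and its partners were close in the 4 libraries. SFPQ had 1825 and 1972 normalized reads with siSFPQ-2 against 1922 and 2466 with siSFPQ-3, ranges that overlap, and 2294 and 2435 in siCtrl. Its difference was 0.20 (SE 0.13, limma, adjusted p = 0.582). Since siRNAs act on mature RNA, these reads do not measure how far each siRNA lowered SFPQ. NONO, in the same order, had 810 and 791 against 878 and 871 (0.13, adjusted p = 0.661), and PSPC1 1675 and 1916 against 1928 and 2069 (0.16, adjusted p = 0.618). NEAT1 had 3336 and 2880 reads with siSFPQ-2 against 2770 and 3370 with siSFPQ-3, with overlap and a difference of -0.02 (SE 0.13, adjusted p = 0.97) that turned to 0.09 without the first siSFPQ-2 library and to 0.12 without the first siSFPQ-3 library. All 4 libraries were above the siCtrl values of 1875 and 2019.

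Of the 34 tested features of paraspeckle genes, 11 lay above and 2 below (32.4 and 5.88%), with a median of 0.08. The RNA-binding protein gene RBM4 had the smallest p, at 732 and 878 with siSFPQ-3 against 632 and 661 (adjusted p = 0.322 in limma). Of 40 genes for SR and hnRNP splicing factors, 15 lay above and 1 below (37.5 and 2.50%), beside 22 and 19.3% of all features. Their median was 0.11. HNRNPD, which binds AU-rich RNA, had 1059 and 1209 reads against 900 and 860 (adjusted p = 0.211).

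Across all protein-coding genes with a RefSeq span, the difference went with gene length. Of 2872 genes under 10 kb, 11.7% lay above and 30.6% below, with a median of -0.09. The shares were 17.6 and 23% of 3929 genes of 10 to 30 kb, 26.9 and 15% of 4297 genes of 30 to 100 kb, 39.1 and 7.76% of 1998 genes of 100 to 300 kb, and 37.7 and 9.38% of 480 genes over 300 kb. The median of the last class was 0.10. Within each of 3 classes of expression level, the share that lay above was lowest under 10 kb (5.73 to 14.3%) and was 33.3 to 43.2% in the classes over 100 kb.

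The libraries did not carry this equally. Relative to each gene's mean over the 6 libraries, the median of genes of 100 to 300 kb was 0.21 in the first siSFPQ-3 library and 0.11 in the second, against 0.06 and 0.08 with siSFPQ-2 and -0.17 and -0.27 in siCtrl. The first siSFPQ-3 library thus stood highest, and the second was closer to siSFPQ-2. For genes over 300 kb the medians were 0.227 and 0.0508 with siSFPQ-3 against 0.0514 and 0.00446 with siSFPQ-2, which overlap. The pairs also overlapped for genes of 10 to 30 kb and of 30 to 100 kb. Over all genes above 100 kb the median difference was 0.09, and it was 0.16 without the second siSFPQ-3 library, 0.04 without the first and 0.02 with all libraries scaled to the same total.

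**Figure D4:**
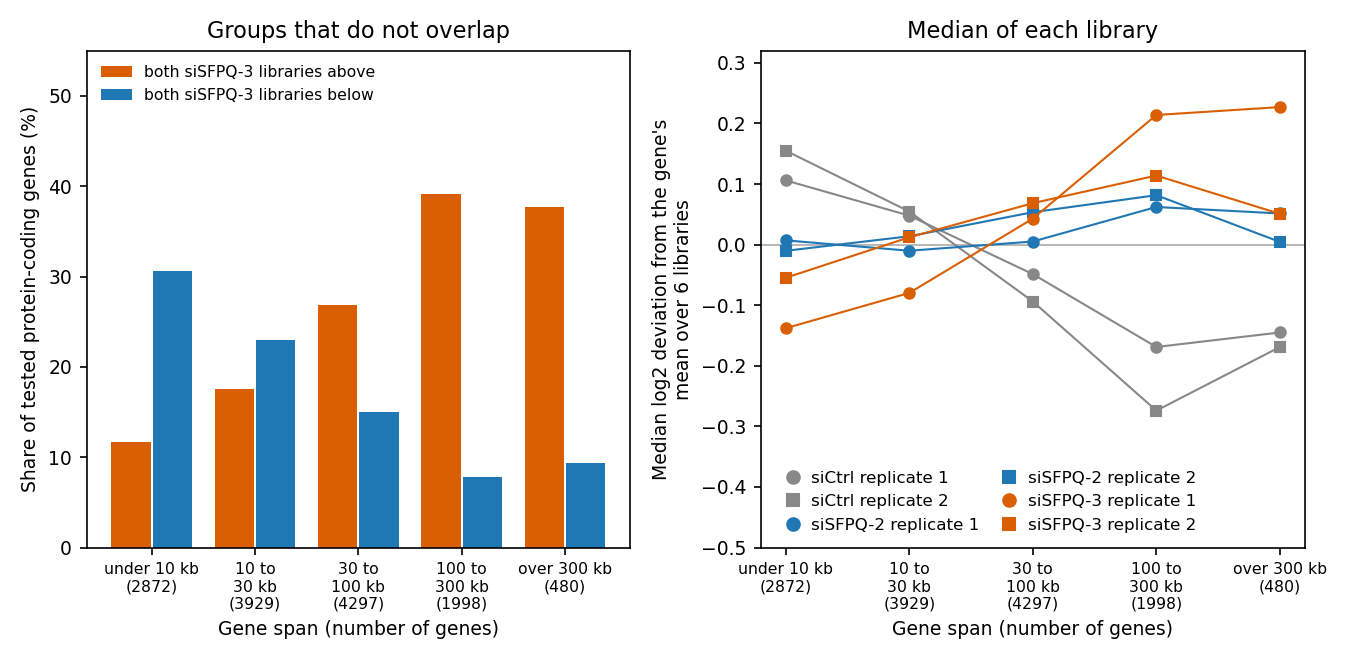
Left, share of tested protein-coding genes in each span class for which both siSFPQ-3 libraries lay above (orange) or below (blue) both siSFPQ-2 libraries. Right, median log2 deviation from the gene's mean over 6 libraries, for each library and span class, with circles for replicate 1 and squares for replicate 2. The share above rises from 11.7% under 10 kb to 39.1% at 100 to 300 kb. For genes over 300 kb the first siSFPQ-3 library reaches 0.23 while the second is at 0.05, which overlaps the siSFPQ-2 libraries.

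By annotated biotype, snoRNA features, whose products guide the modification of ribosomal RNA and lie mostly in introns of host genes, had the highest median. Of 153, 52 lay above and 2 below (34.0 and 1.31%), beside 22 and 19.3% of all tested features, with a median of 0.28. SNORD12 had 23.7 and 28.4 reads with siSFPQ-3 against 12.5 and 9.97, and SNORA21 29.0 and 30.4 against 11.6 and 18.8, which are few reads per feature (chosen after their values were seen). The 29 tested snoRNA host genes had a median of 0.00. Features of 107 snRNAs had a median of 0.22, but their library medians, 0.24 and -0.31 with siSFPQ-3 against -0.17 and -0.39 with siSFPQ-2, overlap between the siRNAs. Long non-coding RNAs (5114) lay above in 19.5% and below in 20.7%. The 154 features annotated as miRNA lay above in 15.6% and below in 16.2%, with a median of -0.10.

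The profile files give signal in 500 bins per gene, of which the first and last 100 were taken as flanks and the 300 between as the gene. The ratio of the start window (the first 10 bins of the gene) to the gene body (the middle 200 bins) compares signal in the first part of the gene with the body. Polymerase commonly pauses near the start before elongation. Bin sizes are not given, so the window may reach past the pause site and its length may differ with gene span. Over 15396 genes, the median log2 ratio was 2.44 and 2.47 in the siSFPQ-2 libraries, 2.20 and 2.38 in the siSFPQ-3 libraries and 2.69 and 2.73 in siCtrl. Both siSFPQ-3 libraries were the lowest, without overlap, and the first lay further down than the second. The ratio lay below for 29.6% of genes and above for 7.58%.

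Few single genes passed the test of this ratio. In limma 1 gene was called higher (0.0065%) and 2 lower (0.013%), with 176 and 573 at an unadjusted p under 0.05. The call that was higher was PCGF3, a Polycomb group gene. Its profile was 0 in both siSFPQ-2 libraries, while the table of normalized reads gave it 832 and 919 there and 824 and 1034 with siSFPQ-3. The profile thus lists PCGF3 at 0 where the table holds reads, and its ratio there is not used as a measurement. Such gaps touched 96 of 20529 matched profile genes, 55 of them on the X chromosome and 23 on chromosome 4, and 35 to 44 genes per library. The 2 genes called lower are given in the profiles only as ENSG00000229996 and ENSG00000238279, and without genes with gaps 0 genes were called in either direction.

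By span, the start-to-body ratio lay below for 18.4% of genes under 10 kb, 32.3% of those of 10 to 30 kb, 40.0% of those of 30 to 100 kb, 37.2% of those of 100 to 300 kb and 32.6% of those over 300 kb. For 30 to 100 kb the library medians were 2.70 and 2.65 with siSFPQ-2 against 2.36 and 2.53 with siSFPQ-3. Genes under 10 kb (2.66 and 2.90 against 2.56 and 2.85) and over 300 kb (1.53 and 1.58 against 1.34 and 1.55) overlapped. So did the 1842 genes whose profiles were deposited in a class named down, at 2.30 and 2.51 against 2.18 and 2.44, with 2.22 and 2.23 in siCtrl. The classes named up and ns did not overlap. Among the called genes, CKAP2L had log2 ratios of 3.37 and 3.72 with siSFPQ-2 and 3.09 in each siSFPQ-3 library, and EXOC6 1.29 and 1.17 against 0.86 and 1.06. KIF2C overlapped, at 1.19 and 1.71 against 1.54 and 1.63.

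**Figure D5:**
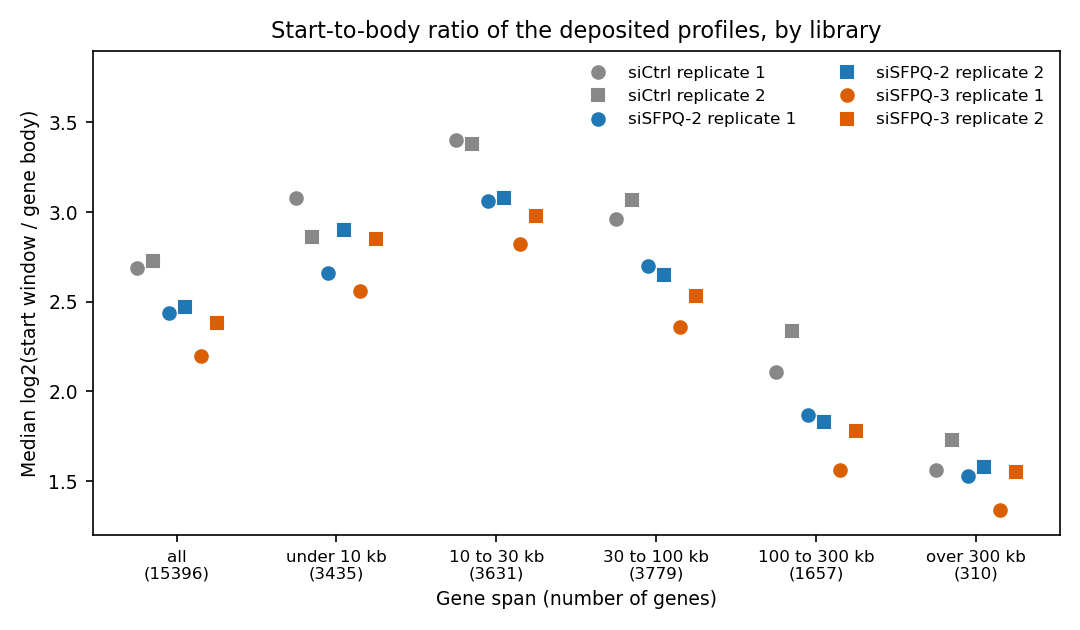
Median log2 ratio of start-window to gene-body signal in each library, for all 15396 genes and by gene span, with the number of genes in parentheses. Circles are replicate 1 and squares replicate 2. Over all genes the siSFPQ-3 libraries (2.20 and 2.38) lie below the siSFPQ-2 libraries (2.44 and 2.47) and the siCtrl libraries (2.69 and 2.73). The siSFPQ-3 and siSFPQ-2 pairs overlap for genes under 10 kb and over 300 kb.

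Signal past the gene end did not separate the siRNAs. The ratio of the window after the end (the first 50 bins past the gene) to the gene body had medians of -0.17 and -0.18 with siSFPQ-2 against -0.13 and -0.18 with siSFPQ-3. It lay above for 18.2% of genes and below for 15%, and limma called 0 genes in either direction (0%), with 392 higher and 292 lower at an unadjusted p under 0.05. In the 310 genes over 300 kb the medians were -0.25 and -0.33 with siSFPQ-2 against -0.38 and -0.47 with siSFPQ-3. These 2 pairs did not overlap, and 25.5% of these genes lay below and 13.5% above. Within the body, the ratio of the later to the earlier bins overlapped between the siRNAs for genes over 300 kb, at -0.19 and -0.23 against -0.19 and -0.24.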

How the data were processed

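PRO-seq libraries were grouped by their labels, with 2 each of siCtrl, siSFPQ-2 and siSFPQ-3. Per the submitters' processing notes, DESeq2 1.38.1, SAMtools 1.3.1, Bowtie2, UMI-tools and cutadapt 1.14 were used, and hg38 and dm6 are the builds listed. The sources used here do not give strand use, the gene annotation or how profiles were scaled and binned. The authors deposited 1 table of reads divided by a size factor per library, used here as signal, and profiles of signal in 500 bins per gene. All values of the table came out as whole reads (100% within 0.1 of a read), so the recovered reads served edgeR 4.0.16 and DESeq2 1.42.0 as alternatives.

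Features needed at least 10 normalized reads in at least 2 libraries. log2(value + 1) of the deposited signal was fitted with limma 3.58.1 (R 4.3.3) with a trended variance over all 6 libraries, and p-values were adjusted by Benjamini-Hochberg over 21773 features. The table held 26067 lines, of which 240 repeated others. Names matched RefSeq by symbol for 18746 features, by synonym for 435 and by accession for 6, and 6640 were unmatched. Named genes were SFPQ, NONO, PSPC1, NEAT1, called genes with separate libraries, a symbol and a mean of at least 287 reads, up to 3 called members per list and direction or else its member of smallest p, and called window ratios. Other genes named are examples chosen after their values were seen. Members and lists were chosen with earlier results of these data known. Scripts were tested on simulated data.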

Additional observations from a re-analysis of the deposited data

How the results depend on the processing

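Against 17 features higher and 5 lower, with 5 calls among listed genes, scaling all libraries to the same total gave 1, 0 and 0, a minimum of 50 reads 3, 0 and 0, a pseudocount of 0.1 gave 5, 0 and 1, and a pseudocount of 5 gave 8 among listed genes. The 4 siSFPQ libraries alone gave 0, 0 and 0. On recovered reads edgeR called 40, 11 and 11 and DESeq2 208, 47 and 60. A replicate block gave 572, 188 and 144, and called 23 of the 40 named genes not called without it. The labels do not say that the numbers pair the samples, and the siRNAs compared share only 2 numbers. Deviations of libraries of the same number correlated at 0.609 (siSFPQ-2 and siSFPQ-3), 0.174 (siCtrl and siSFPQ-2) and 0.262 (siCtrl and siSFPQ-3) over 10887 genes. Leaving out 1 library gave 0 to 213 higher, 0 to 95 lower and 0 to 88 listed, with medians of 0.325 to 0.944 (mitotic), 0.221 to 0.62 (S phase) and 0.0442 to 0.16 (genes over 100 kb, 0.023 at the same total). An arm left with 1 library is assumed to vary like the others. For start-to-body ratios (1 higher, 2 lower), a 10-fold pseudocount left 0 lower, wide windows 1, leaving out the lower-signal genes 1, and the 4 libraries alone, the replicate block and leaving out genes with gaps (chosen after seeing the data) 0 and 0. Leaving out 1 library gave 0 to 0 higher and 0 to 2 lower. Of 62 named genes, 1 changed sign, NEAT1 (-0.02; 0.0851 without the first siSFPQ-2 library and 0.121 without the first siSFPQ-3 library). Depth limits features of few reads, such as snoRNAs.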
